A study of Mus musculus with 8 samples.

Results

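The hnRNP and SR splicing factor mRNAs were taken as the transcripts of every gene whose symbol begins with Hnrnp or Srsf. They made up 31 genes (20 Hnrnp and 11 Srsf genes) of the 13120 genes with reads, and 19503 of the 1926118 reads kept (1.01%). The rule that picks the genes uses their symbols and no measured value, although the set was proposed with results of these data known. Of the 31 genes, 30 had at least 30 reads and are described. Srsf12 had 1 read and is not described further. The reads lay on 140 annotated isoforms, of which 86 had at least 30 reads.

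Poly(A) tails were measured by nanopore direct RNA sequencing, in which each native RNA molecule is read from its tail inward, so that every read gives both the transcript and its tail length. The cells were wild-type mouse P19 cells, an embryonal carcinoma line kept undifferentiated in serum medium. They were given 10 µM MHY1485 (MHY), a compound described as an mTOR activator, or the same amount of its solvent DMSO, and were collected after 24 h or 48 h. There were 4 groups of 2 biological replicates, 8 libraries in all. The libraries carry the numbers 21 and 23 in each 24 h group and 24 and 25 in each 48 h group, and these numbers are names, not hours. All samples come from a single cell line, and p-values measure the spread between these cultures.

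hnRNP proteins coat nascent pre-mRNA and often block the use of nearby splice sites, whereas SR proteins carry arginine- and serine-rich domains, bind exonic enhancers and recruit the spliceosome. The balance between both families sets the inclusion of many alternative exons, and several members also act in mRNA export, translation and decay. Many of these genes limit their own output by splicing in an exon that introduces a premature stop codon, which sends the mRNA to nonsense-mediated decay (NMD), or by retaining an intron. The poly(A) tail is added at the 3′ end after a polyadenylation signal, most often AAUAAA in the RNA, and is shortened in the cytoplasm as the mRNA ages.

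Levels are given in RPM, the reads of a gene scaled to a common library size. Between 178369 and 316546 reads were kept per library, of which 1547 to 3418 were hnRNP or SR factor reads (0.867% to 1.10%). Every sequencing run held both treatments but no run held both time points, so that time and run cannot be told apart. The labelled cell type was checked against its markers. Of 14 embryonal carcinoma markers 13 had reads, led by Pou5f1 with 5098, and their summed level was 3665 to 4234 RPM in the 8 libraries, while Zfp42 was at 0. The summed level was 215 to 404 RPM for neuronal markers, nearly all of it from Stmn2 (455 reads) and Tubb3 (94 reads), which had reads in all 8 libraries, with Neurog1 and Dcx among those at 0, and 4.44 to 10.9 for endoderm markers, with Sox17 and Afp at 0. The mesoderm and fibroblast markers summed to 39.2 to 253 RPM, and their gene T had 73 and 40 reads in libraries 25 of DMSO and MHY at 48 h against 3 to 15 in the other 6. At 48 h T was lower in MHY than in DMSO (log2 fold change −1.19, limma, Benjamini-Hochberg adjusted p = 0.00890), as was the pluripotency gene Tdgf1 (−1.0, adjusted p = 0.000678). The part of these markers in the results below was not tested.

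The most abundant members were Hnrnpa1 and Hnrnpab, followed by Srsf3. Hnrnpa1, which binds splicing silencers and whose mRNA carries a 5′-terminal oligopyrimidine tract, had 2863 reads. Hnrnpab, a packaging hnRNP close to the A/B group, had 2340 reads, and Hnrnpa3 had 1129 and Hnrnpa2b1, known for RNA transport, 1059. Srsf3, the smallest SR protein and an export adaptor, led the SR genes with 1422 reads. The other genes of the 10 most read were Hnrnpk, which binds C-rich RNA (1086), Hnrnpf, which binds runs of G (1077), Hnrnpc, which binds runs of U (922), Srsf2, an enhancer-binding SR protein (835), and Srsf7, an SR protein with a zinc knuckle (805). These are read counts per gene, and in direct RNA sequencing a read stands for a molecule irrespective of its length.

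Tails of splicing factor mRNAs were longer than those of the typical gene in these cells, with wide differences among the factors. Among genes with at least 100 reads, the median of the gene medians was 111.59 nt for the 27 splicing factor genes, 108.54 nt for the 17 Hnrnp genes and 115.7 nt for the 10 Srsf genes, against 100.83 nt for all 2557 genes (quartiles 93.58 and 109.15 nt). The median tail of 19 of the 27 lay above that of the typical gene. Such tails were not particular to these symbols. Of the hnRNP proteins with other symbols the most read, Pcbp1 and Pcbp2, had medians of 107.7 and 114.9 nt. Of the SR-related genes the most read, Rnps1 and Tra2b, had 127 and 101.6 nt. Other genes of these lists lay below the typical gene, such as Pcbp4 with 92.9 nt and Tnpo3 with 79.5 nt. Over pooled reads, the median tail was 105.35 nt for splicing factors and 98.62 nt for all other reads. The splicing factor median was the higher in 8 of 8 libraries, at 100.1 to 109.1 nt against 92.4 to 102.5 nt for all reads. Tails under 30 nt made up 2.93% of splicing factor reads and 2.92% of other reads, whereas tails of 30 to 90 nt made up 36.1% and 40.6%. Tails over 150 nt made up 22.4% of the splicing factor reads on protein-coding isoforms and 18.1% of those of all genes. These are descriptions, since the choice of genes was made with results of these data known.

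**Figure D1:**
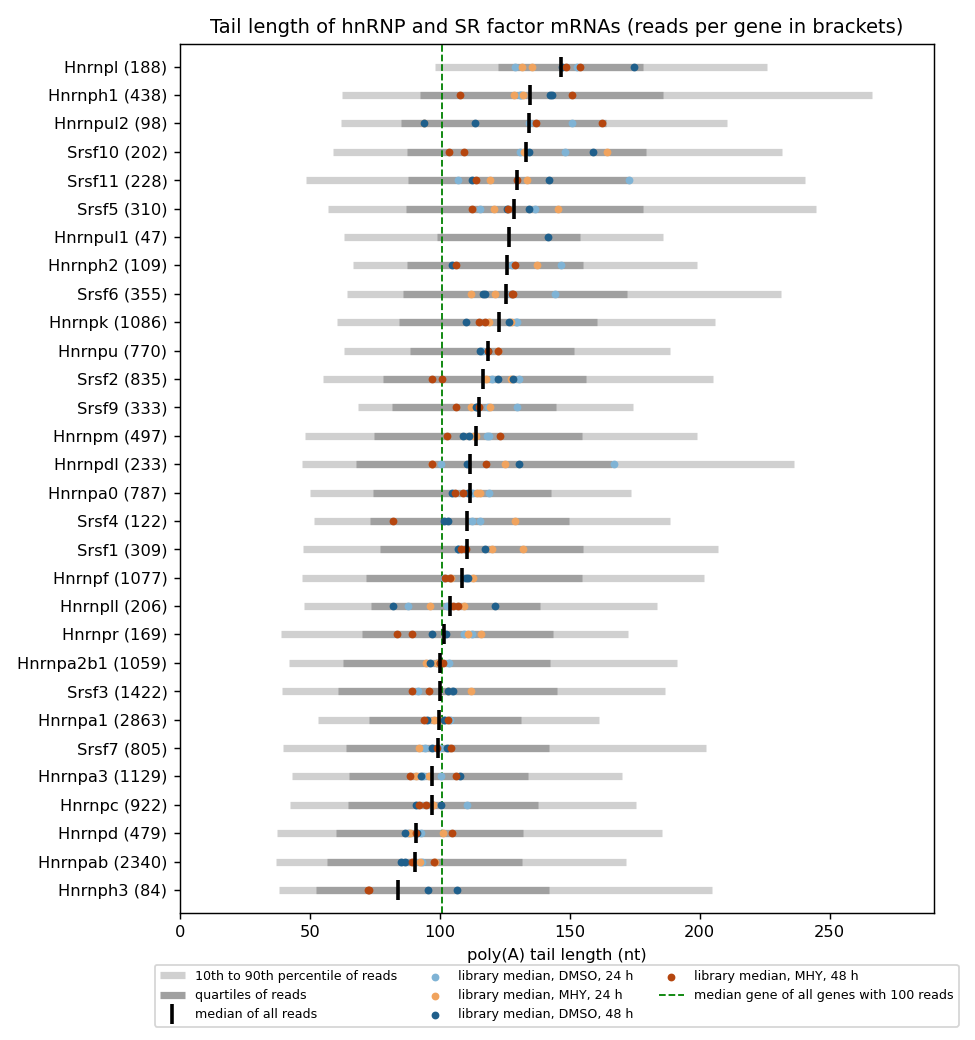
Poly(A) tail length in nt (horizontal axis) of the 30 splicing factor genes with at least 30 reads, ordered by median, with the number of reads in brackets. Bars span percentiles and quartiles of all reads, black ticks mark the median, points mark library medians with at least 10 reads, and the dashed line marks the median gene of all genes (100.83 nt). Hnrnpl is at the top with 146.63 nt and Hnrnpab, the lowest gene with at least 100 reads, has 90.38 nt.

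Hnrnpl, which binds CA repeats and regulates alternative exons, had the longest tails. Its median was 146.63 nt over 188 reads, higher than that of 99.8% of genes with at least 100 reads. In the single libraries the median was 129 and 153 nt in DMSO at 24 h, 132 and 136 nt in MHY at 24 h, 175 and 147 nt in DMSO at 48 h, and 149 and 154 nt in MHY at 48 h, on 12 to 37 reads each. All 8 values lay above the median gene, and the groups overlapped. Of its 188 reads 0 had a tail under 30 nt, which allows a share of up to 1.60% by a limit of 3 counts and up to 2.0% by the 95% Wilson interval, and 7.98% had a tail of 30 to 90 nt. Short tails were thus rare in both classes for this gene.

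Among members with at least 100 reads, Hnrnph1, an hnRNP that binds runs of G, and Srsf10, an SR protein that represses splicing when dephosphorylated, came next. Hnrnph1 had a median of 134.52 nt over 438 reads, with library medians of 107.6 to 150.9 nt, and 1 of its 438 reads (0.228%, 95% Wilson interval 0.0403% to 1.28%) was under 30 nt. Srsf10 had a median of 133.0 nt over 202 reads, with library medians of 103.6 to 164.4 nt. Counting intervals here and below cover counting error only. In a ranking of the 25 genes with at least 10 reads in each library, from 1 for the longest tail, Hnrnpl held ranks 1 to 7, Hnrnph1 ranks 2 to 10 and Srsf10 ranks 1 to 13, so that these neighbours were not separated.

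The shortest tails among members with at least 100 reads belonged to abundant hnRNPs. Hnrnpab had a median of 90.38 nt (library medians 85.1 to 98.0 nt), and 5.94% of its reads (95% Wilson interval 5.05% to 6.97%) were under 30 nt. Hnrnpd (AUF1), which binds AU-rich elements and acts in mRNA decay, had a median of 90.93 nt over 479 reads (86.6 to 104.6 nt), with 5.85% under 30 nt. Hnrnpc had 96.98 nt (90.9 to 110.4 nt). Hnrnpab held ranks 19 to 25, so its place among the shortest was held in every library.

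Between these ends of the list several SR genes held long tails. Srsf11, an arginine- and serine-rich partner of the spliceosome, had a median of 129.9 nt over 228 reads, Srsf5 one of 129 nt over 310 and Srsf6 one of 125 nt over 355. Their library medians spread widely, at 107 to 173 nt, 112 to 145 nt and 112 to 144 nt. Srsf9 had 115 nt over 333 reads, of which 1 (0.300%, 95% Wilson interval 0.0530% to 1.68%) was under 30 nt, and Srsf1 had 110.4 nt over 309 reads. The SR genes near the median gene were Srsf3 and Srsf7.

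Among the hnRNP genes of this range, Hnrnpk had a median of 123 nt (library medians 110.1 to 129.8 nt), and 1.29% of its reads (95% Wilson interval 0.769% to 2.15%) were under 30 nt. Hnrnpu had 119 nt, with library medians between 115 and 122 nt, the tightest range of the longer-tailed genes named here. Hnrnpm had 114 nt over 497 reads, Hnrnpa0 112 nt over 787 and Hnrnpf 109 nt over 1077. Some paralogues lay at a similar level, such as Hnrnpa1, Hnrnpa2b1 and Hnrnpa3 with 99.75, 99.9 and 97.0 nt, and others lay further apart, without a test. Hnrnpll had 104 nt (81.8 to 121 nt) where Hnrnpl had 146.63 nt, and Hnrnph3, with 84 reads and library medians from 52.4 to 155.5 nt, had 84.0 nt where Hnrnph1 had 134.52 nt and Hnrnph2, with 109 reads, 126 nt. The share of reads with a tail over 150 nt ran from 45.7% of Hnrnpl, 40.6% of Srsf10 and 38.8% of Hnrnph1 reads to 16.5% of Hnrnpab and 14.0% of Hnrnpa1 reads.

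The rank order of the 25 genes was largely shared between libraries. The Spearman correlation of the gene medians between pairs of libraries ran from 0.483 to 0.867, with a median of 0.72 over 25 genes. The correlation of median tail with read number was −0.543 over the 27 members and −0.249 over all 2557 genes, given as descriptions over genes that share libraries. Hnrnpa1 departed from its equally short-tailed neighbours in having few of the shortest tails. Its median was 99.75 nt, yet 0.733% of its 2863 reads (95% Wilson interval 0.480% to 1.12%) were under 30 nt, against 3.45% for Srsf3 (2.62% to 4.53%, median 99.87 nt), 4.34% for Hnrnpa2b1 (3.27% to 5.75%, median 99.9 nt) and 4.72% for Srsf7 (3.46% to 6.41%, median 99.3 nt). The intervals did not overlap. At the other end of the list, Hnrnpdl moved between ranks 2 and 22 and Srsf2 between ranks 5 and 22, and these genes are treated further on.

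The position at which a read ended showed which polyadenylation site its mRNA had used. Among the splicing factors 48 ends with at least 30 reads and 10% of the gene's reads were found in 30 genes, and 43 of the 48 had AATAAA or ATTAAA (DNA letters, transcript strand) within the last 50 nt. Over all genes 85.7% of 3778 ends had such a signal. More than 1 end was used by 14 splicing factor genes. In 8 of them 2 ends at least 100 nt apart had at least 5 reads in each library, and their tails were compared within each library. This comparison was added after the data had been seen. The last 30 bases before both ends are shown for the 4 genes in which a signal stood in that window at each end and the tails differed, and before the main end of Srsf2, whose tails are described below, from GENCODE vM21 transcripts (GRCm38, mm10), with the signal in capitals. The last base printed lies at most 3 nt from the position called as the end.
Hnrnpa0 upstream end, chr13:58126913-58126942, minus strand: atttttAATAAAtcattgtgtttgaccgta
Hnrnpa0 downstream end, chr13:58125879-58125908, minus strand: ggatatcacaAATAAAgaattcaattctta
Hnrnpk upstream end, chr13:58391950-58391979, minus strand: atgatttttaaAATAAAtttagtgaatcta
Hnrnpk downstream end, chr13:58391239-58391268, minus strand: tccacatctaAATAAAacttccatgatgtt
Hnrnpa1 upstream end, chr15:103244549-103244578, plus strand: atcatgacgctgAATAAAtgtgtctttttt
Hnrnpa1 downstream end, chr15:103244922-103244951, plus strand: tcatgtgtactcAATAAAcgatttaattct
Hnrnpa2b1 upstream end, chr6:51462760-51462789, minus strand: tatgatttAATAAAataattctaaaggaaa
Hnrnpa2b1 downstream end, chr6:51461124-51461153, minus strand: aagttttataaAATAAAtacttttgtatcc
Srsf2 main end, chr11:116849914-116849943, minus strand: tagtttgATTAAAgtgttttcttggtgtta

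At all of these ends but that of Srsf2 the signal was AATAAA, whether the tails were the longer or the shorter of the pair. Reads were aligned to annotated transcripts, so that an end beyond an annotated one could not be seen. Hnrnpa3 also had a pair of ends. Its upstream AATAAA began 32 nt before the end, outside the 30 bases, and neither signal was found before its downstream end.

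Tail length differed between the ends of the same gene in 5 of the 8 splicing factor genes tested (limma on within-library differences, Benjamini-Hochberg adjusted p under 0.05 over 168 genes), against 25% of the 168 genes in all, where 37 had the longer tails downstream and 5 upstream. In 4 of the 5 the downstream end had the longer tails. In these genes the main isoform reached both ends, so that the downstream end gives the longer 3′ UTR. In Hnrnpa2b1 the downstream end had the shorter tails, and different isoforms reached the ends. Those with the most reads were 1728 nt long upstream and 1662 nt downstream, so that the downstream end did not extend the same 3′ UTR.

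Hnrnpa0, an intronless A/B-type hnRNP gene, showed the largest difference. Its 561 reads at the upstream end had a median of 104.5 nt and its 187 reads at the downstream end, 1034 nt further on, one of 133.2 nt. In the order DMSO 24 h, MHY 24 h, DMSO 48 h and MHY 48 h, the upstream medians were 102 and 113, 109 and 106, 92.8 and 107, and 99.9 and 95.2 nt, and the downstream medians 140.3 and 143, 121 and 139.8, 132 and 128, and 115 and 128 nt. The lowest downstream value was above the highest upstream value. The means were 103 ± 6.83 nt and 131 ± 9.94 nt (SD, n = 8), and the fitted difference was 27.5 nt (SE 4.88, limma, adjusted p = 0.000155), with the downstream tails longer in 8 of 8 libraries. The call was kept without any 1 library (25.8 to 30 nt).

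Hnrnpk, Hnrnpa3 and Hnrnpa1 had longer downstream tails by smaller amounts. In Hnrnpk the medians were 116.5 nt (758 reads) upstream and 133.7 nt (263 reads) downstream, a fitted difference of 15.3 nt (SE 4.88, limma, adjusted p = 0.0232), longer downstream in 7 of 8 libraries. In Hnrnpa3 they were 89.6 nt (475 reads) and 102.1 nt (348 reads), a difference of 15.2 nt (SE 4.54, limma, adjusted p = 0.0150), again in 7 of 8. In Hnrnpa1 they were 90.2 nt (571 reads) and 101.5 nt (2184 reads), a difference of 9.62 nt (SE 3.33, limma, adjusted p = 0.0349), in 6 of 8. These calls rested on single libraries. That of Hnrnpk was lost without library 24 or 25 of DMSO or library 25 of MHY at 48 h (adjusted p = 0.0507 to 0.0730), that of Hnrnpa3 without library 23 of DMSO at 24 h (13.1 nt, adjusted p = 0.0545) or library 24 of MHY at 48 h (12.7 nt, adjusted p = 0.0765), and that of Hnrnpa1 was kept in 2 of the 8 fits that left out a library (7.86 to 11.5 nt, limma adjusted p = 0.0124 to 0.107).

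Hnrnpa2b1 ran the other way. Its upstream end, 1639 nt before the other on the genome, had a median of 104.4 nt (703 reads) and its downstream end 88.8 nt (325 reads). In the same group order the upstream medians were 104 and 107, 101 and 109, 100.2 and 102, and 102 and 109 nt, and the downstream medians 93.4 and 76.1, 99.8 and 91.6, 77.8 and 88.0, and 93.0 and 90 nt. The values at the ends did not overlap. The fitted difference, downstream minus upstream, was −15.6 nt (SE 4.02, limma, adjusted p = 0.00545), with the upstream tails longer in 8 of 8 libraries, and the call was kept without any 1 library. Tails under 30 nt made up 2.56% of its upstream and 8% of its downstream reads.

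**Figure D2:**
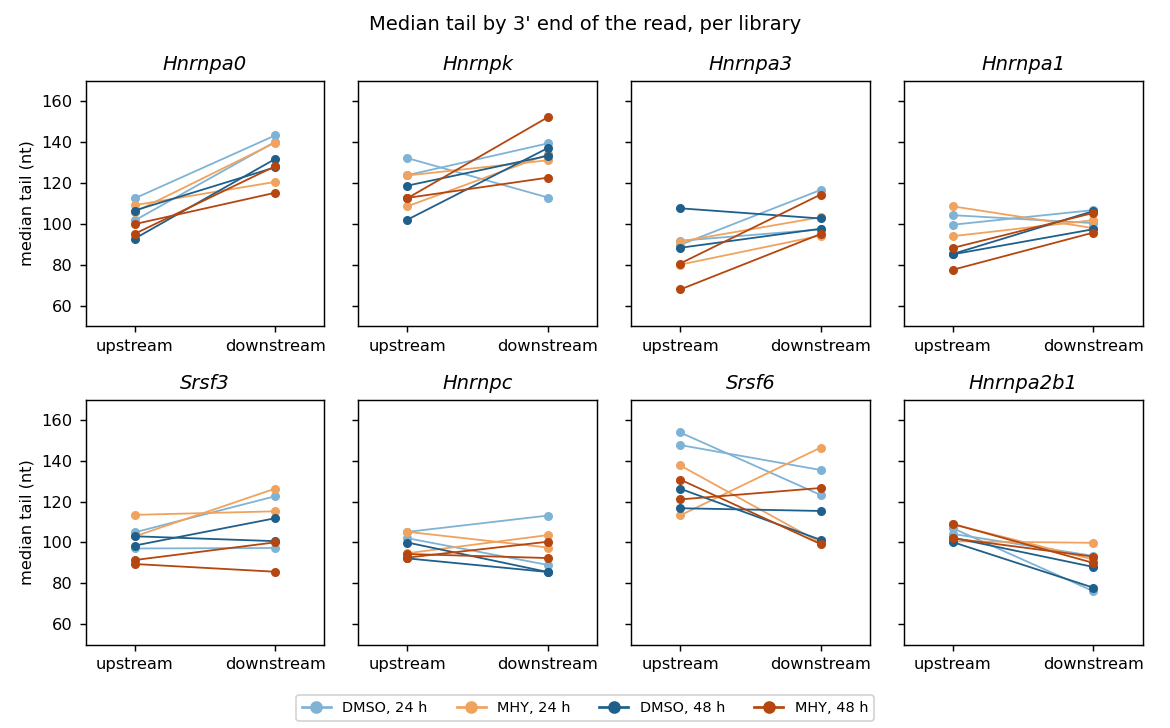
Median poly(A) tail in nt (vertical axis) of reads ending at the upstream and the downstream 3′ end of 8 splicing factor genes, with a line for each of the 8 libraries, coloured by group. All lines rise for Hnrnpa0 and all fall for Hnrnpa2b1, while those of Hnrnpc, Srsf3 and Srsf6 go both ways.

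The other 3 genes did not pass the test. The downstream minus upstream difference was 7.65 nt in Srsf3 (limma, adjusted p = 0.227), −2.69 nt in Hnrnpc (adjusted p = 0.753) and −15.4 nt in Srsf6 (adjusted p = 0.139), an SR protein whose ends had 6 reads or more per library. In Hnrnpc, 8 of the 20 bases that follow each of these ends in the transcript were A, and whether the reads there came from priming inside an A-rich stretch was not tested.

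Most splicing factor reads lay on isoforms annotated as coding, and the non-coding ones were placed with less certainty. Of the 19503 reads 18273 (93.7%) lay on protein-coding isoforms, 868 (4.45%) on isoforms annotated as NMD targets, 294 (1.51%) on retained-intron isoforms and 68 (0.349%) on other processed transcripts. NMD isoforms took 1.05% of the reads of all genes. A mapping quality of at least 10, which marks a read that aligns clearly better to 1 transcript than to any other, was reached by 60.5% of the coding, 21.4% of the NMD and 10.5% of the retained-intron reads of splicing factors. Hnrnpu, a nuclear scaffold hnRNP, and Srsf1, the founding SR protein, had a mapping quality under 10 for every read, and both have a further copy on a patch scaffold among the annotated transcripts.

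The most read isoforms of the main genes illustrate this. In Hnrnpa1, ENSMUST00000087351.8 took 1803 reads (63.0% of the gene) with 94.3% at a mapping quality of at least 10. Another coding isoform, ENSMUST00000036004.15, took 435 reads with 8.97% at that quality. Hnrnpab had 91.2% of its reads on ENSMUST00000074669.9 (2135 reads) and Srsf3 88.5% on ENSMUST00000130216.2 (1258 reads). Srsf2 had 96.6% on ENSMUST00000092404.12 (807 reads). Hnrnpf and Hnrnpk were spread over several isoforms, with 45.8% of Hnrnpf reads on ENSMUST00000035493.13 and 31.5% of Hnrnpk reads on ENSMUST00000224182.1. The largest isoform of Hnrnpa2b1, ENSMUST00000114459.7, took 28.8% of the reads.

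In Hnrnpa3 and Hnrnpa2b1 isoforms that differed in their use of the 3′ ends also had different median tails. Of the 218 reads on Hnrnpa3 isoform ENSMUST00000111964.7, 97.7% ended at the upstream end of the gene, and their median was 83.8 nt. The main isoform ENSMUST00000111962.7 used both ends, with 29.8% of its 798 reads upstream and 34.0% downstream, and had 98.2 nt. Isoform ENSMUST00000111961.7, with 66.1% of its 112 reads downstream, had 106 nt, but 0% of its reads reached a mapping quality of 10. In Hnrnpa2b1, isoforms ENSMUST00000114459.7 and ENSMUST00000203220.2, with 305 and 273 reads, end at the upstream site and had medians of 103 and 106 nt, while ENSMUST00000090002.9, with 147 reads, ends at the downstream site and had 91.1 nt. In Srsf7 the most read isoforms, ENSMUST00000235069.1 (393 reads) and ENSMUST00000063417.10 (322 reads), had 92.6 and 103 nt. In Hnrnpf the 5 coding isoforms lay between 99.9 and 110.1 nt, and the main isoforms of Hnrnpk, ENSMUST00000224182.1 and ENSMUST00000043269.13, had 122 and 123.5 nt. These values are given without a test.

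Non-coding isoforms had at least 30 reads in 8 genes, and their share depended on the mapping quality asked for. The share was 18.5% of reads in Hnrnpa1 (529 of 2863) and 3.47% among reads that reached a mapping quality of 10. In Srsf3 it was 11.5% and 2.64% at that quality. It was 10.8% and 6.32% in Hnrnpa2b1, and 27.9% and 23.8% in Hnrnpdl, a paralogue of Hnrnpd. In Srsf11 it was 21.5%, with 0 of 56 reads at the higher quality. In Srsf4 it was 38.5% and 10.5%, in Srsf9 12.9% and 0.364%, and in Srsf7 4.10% and 2.76%. The share was thus kept best in Hnrnpdl, whose NMD isoform ENSMUST00000086900.10 had 97.9% of its 48 reads at the higher quality.

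**Figure D3:**
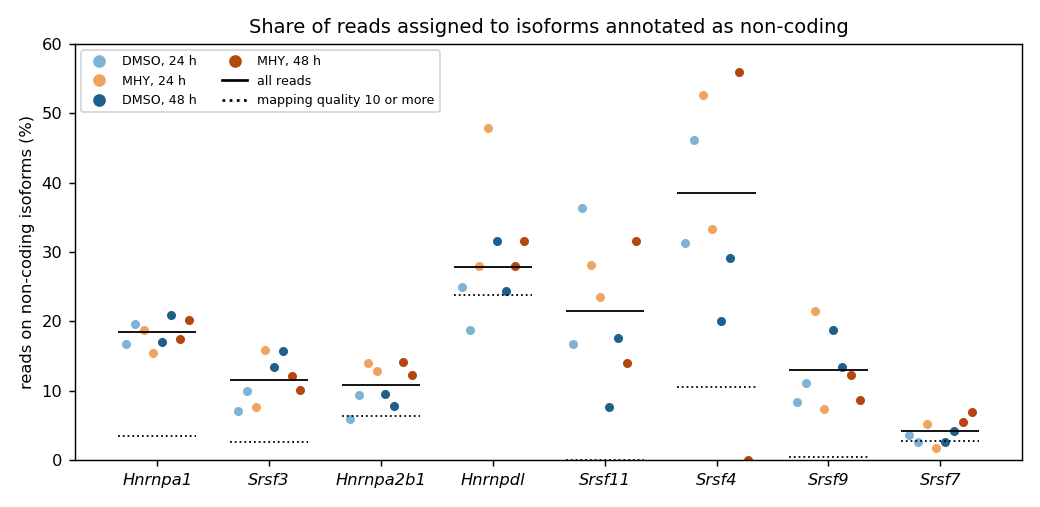
Share of a gene's reads on isoforms annotated as non-coding, in percent (vertical axis), for the 8 splicing factor genes with at least 30 such reads. Points are the 8 libraries, solid lines the share over all reads and dotted lines the share among reads with a mapping quality of at least 10, as in 18.5% and 3.47% for Hnrnpa1.

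Where the reads of these isoforms ended differed from isoform to isoform. Of the 474 reads on the Hnrnpa1 NMD isoform ENSMUST00000230489.1, 0.422% ended within 24 nt of that isoform's own annotated end and 89.2% ended at the main end of the coding mRNA, with a median gap of 1233 nt to the annotated end, and 1.90% had a mapping quality of at least 10. The other Hnrnpa1 NMD isoform, ENSMUST00000230171.1, had 55 reads, of which 90.9% ended at its own annotated end and 98.2% had the higher quality. The first thus shared its end with the coding mRNA and the second did not. Of the 90 reads on the Srsf3 NMD isoform ENSMUST00000037776.15, 18.9% ended at its own end and 58.9% at the main end of the gene. Of the 86 reads on the Hnrnpa2b1 NMD isoform ENSMUST00000203954.2, 98.8% ended at the downstream end of the gene. The Srsf11 retained-intron isoform ENSMUST00000152274.8 had 49 reads, of which 0% had the higher quality.

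Tails of non-coding and coding isoforms of a gene were compared within each library for genes with at least 5 reads of each kind per library. None of the 3 splicing factor genes that could be tested was called (limma, adjusted p under 0.05), against 11.1% of 81 genes in all, and 1 of the 3 had an unadjusted p under 0.05. The non-coding minus coding difference was −13.6 nt in Hnrnpa2b1 (SE 6.53, limma, adjusted p = 0.221), with the coding isoforms longer in 7 of 8 libraries, 5.55 nt in Hnrnpa1 (SE 2.81, adjusted p = 0.233) and 5.02 nt in Srsf3 (SE 4.69, adjusted p = 0.565). In Hnrnpa2b1 the difference went with the choice of 3′ end. At the downstream end the 87 NMD reads had a median of 83.3 nt and the 234 coding reads one of 89.4 nt, where the coding reads of the gene as a whole had 101 nt. The part of the 3′ end in the difference was not tested.

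MHY was compared with DMSO at each time point to ask whether mTOR activation alters tails and transcript levels. Under the settings used here no splicing factor gene passed the test for its median tail, and 1 isoform, the main one of Srsf2, did. The Srsf2 gene passed at 48 h under 3 alternative settings, with at least 30 reads in each library (adjusted p = 0.0396), with weights by absolute reads and no variance trend (adjusted p = 0.0389) and with a replicate block (adjusted p = 0.0128). Of 25 splicing factor genes with at least 10 reads in each library, 0 were called for the median tail in any contrast (limma, adjusted p under 0.05), against 0% of 1949 genes at 24 h, 0% at 48 h, 0% for the difference between both effects and 0.103% for 48 h against 24 h. The number with an unadjusted p under 0.05 was 0 at 24 h, 3 at 48 h, 3 for the difference and 1 for time. At 48 h the median of the fitted changes was −2.35 nt over the 25 genes and −3.01 nt over all 1949. Both depended on library 24 of MHY, without which they were 0.099 and 0.40 nt, and were −4.0 and −5.74 nt without library 25 of MHY. Over 32 splicing factor isoforms 1 was called at 48 h and 0 in the other contrasts, against 0.429% of 1866 isoforms at 48 h, 0% at 24 h, 0% for the difference and 0.161% for time. The 8 isoforms called in all at 48 h became 0 to 28 when a library was left out, with 28 without library 25 of MHY, and the 3 for time 0 to 54. Of the 32, 1 had an unadjusted p under 0.05 at 24 h, 2 at 48 h, 3 for the difference and 1 for time.

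The isoform called was the main Srsf2 mRNA, whose tails were shorter in MHY than in DMSO at 48 h. The median tail of ENSMUST00000092404.12 (chr11:116849901-116853094, minus strand) was 126 and 119 nt in DMSO and 118 and 126 nt in MHY at 24 h, and 122 and 127 nt in DMSO and 101 and 97.9 nt in MHY at 48 h, on 67 to 128 reads each. Both MHY libraries at 48 h lay below the other 6. The change was −25.4 nt at 48 h (SE 6.66, limma, adjusted p = 0.0427) and −0.731 nt at 24 h, and the difference between both effects was −24.7 nt (adjusted p = 0.897), so that a difference between the time points was not shown. For the whole gene the means at 48 h were 125 ± 3.92 nt in DMSO and 98.8 ± 2.73 nt in MHY (SD, n = 2). The exact permutation p was 0.33, the smallest that 2 against 2 libraries can give, and in the fit over all genes Srsf2 was not called (−26.4 nt, SE 6.56, limma p = 7.33e-05, adjusted p = 0.129). Of its reads 95.7% had a mapping quality of at least 10 and 89.0% ended at the ATTAAA site shown above.

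Each library, meaning a barcoded culture, was read in every run of its time point, so that runs share cultures and are not replicates. The paper describes independent library preparations for each time point, so that runs may also differ in preparation. At 48 h the Srsf2 values were lower in MHY in both runs. In 1 run the gene's medians were 128 and 125 nt in DMSO and 114 and 96.9 nt in MHY, and in the other 118 and 129.7 nt in DMSO and 94.2 and 96.8 nt in MHY. At 24 h the medians of a single library varied between runs by more than this, at 131, 100.2 and 136 nt in library 23 of DMSO and 123, 120 and 82.3 nt in library 21 of MHY, on 22 to 51 reads each. The call itself was lost whichever of the 8 libraries was left out, with adjusted p = 0.0728 to 0.948 (limma) and a change of −22.9 to −27.5 nt. The direction was kept and the side of the threshold was not.

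Srsf10 had the next lowest p, and its tails did not pass the test. Its medians were 131 and 148 nt in DMSO and 164 and 132 nt in MHY at 24 h, and 134 and 159 nt in DMSO and 104 and 109 nt in MHY at 48 h, on 15 to 39 reads each. The change at 48 h was −41.6 nt (SE 13.5, limma, adjusted p = 0.309). Hnrnph1 followed with −19.1 nt (adjusted p = 0.618), where library 24 of MHY had 108 nt and library 25 had 151 nt, to either side of the DMSO values of 142.6 and 143 nt. Over the pooled reads of all Srsf genes the medians at 24 h were 114 and 114 nt in DMSO and 119.95 and 117 nt in MHY, both MHY values being the higher. At 48 h they were 113 and 115 nt in DMSO and 104 and 102 nt in MHY, and 109 and 111 nt against 104 and 103 nt without Srsf2. Over all reads they were 96.8 and 99.3 nt in DMSO and 92.4 and 98.2 nt in MHY, with library 24 of MHY the lowest, and the part of this in the Srsf values was not tested. The pooled Hnrnp medians at 48 h were 102 and 104 nt in DMSO and 99.2 and 105 nt in MHY, and these overlapped.

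For tails under 30 nt, Hnrnpa1 was the 1 splicing factor gene called. At 48 h 1 of 25 genes was called, against 0.308% of 1949, and in the other contrasts 0 of 25, against 0.0513% at 24 h, 0.0513% for the difference between both effects and 0.205% for time. An unadjusted p under 0.05 was found for 1 gene at 24 h, 4 at 48 h, 2 for the difference and 0 for time (limma). Of the Hnrnpa1 reads, 2 of 312 and 2 of 443 were under 30 nt in DMSO and 2 of 325 and 0 of 213 in MHY at 24 h, and 0 of 359 and 2 of 480 in DMSO and 8 of 453 and 5 of 278 in MHY at 48 h. The libraries with 0 reads allow shares of up to 1.41% and 0.836% by the limit of 3 counts, and of up to 1.77% and 1.06% by the Wilson interval. Both MHY libraries at 48 h had more such reads than the other 6.

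In percent the Hnrnpa1 share at 48 h was 0.208 ± 0.295% in DMSO and 1.78 ± 0.0230% in MHY (SD, n = 2, exact permutation p = 0.33, the smallest possible). The single MHY shares were 1.77% (95% Wilson interval 0.898% to 3.45%) and 1.80% (0.771% to 4.14%). Each library was read in both runs at 48 h. In library 24 of MHY 6 of 190 reads were under 30 nt in the first run and 2 of 263 in the second, in library 25 of MHY 2 of 108 and 3 of 170, and in the DMSO libraries 0 of 156 and 1 of 184 in the first run and 0 of 203 and 1 of 296 in the second. Most of the short tails of library 24 thus came from 1 run. On the log2 odds scale with 0.5 reads added to each class the share rose by 2.71 (SE 0.613, limma, adjusted p = 0.0453). The difference between the effects at both time points was 3.16 (adjusted p = 0.280), and 3.56 with a replicate block, where it passed the test (adjusted p = 0.00613). The same class was also more frequent over all reads in these libraries, with 4.46% and 3.38% in MHY at 48 h against 2.17% to 2.87% in the other 6, and its part in the Hnrnpa1 value was not tested. The call was lost without any of the 48 h libraries (adjusted p = 0.0585 to 0.739, limma), at a mapping quality of at least 10 (2.77, adjusted p = 0.0617), at a barcode confidence of at least 0.9 (1.55, adjusted p = 0.414), with 30 reads in each library (2.71, adjusted p = 0.0919), with weights by absolute reads and no variance trend (2.71, adjusted p = 0.127) and with a class bound of 20 nt (2.80, adjusted p = 0.260). The MHY libraries held 13 of these reads at 48 h.

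**Figure D4:**
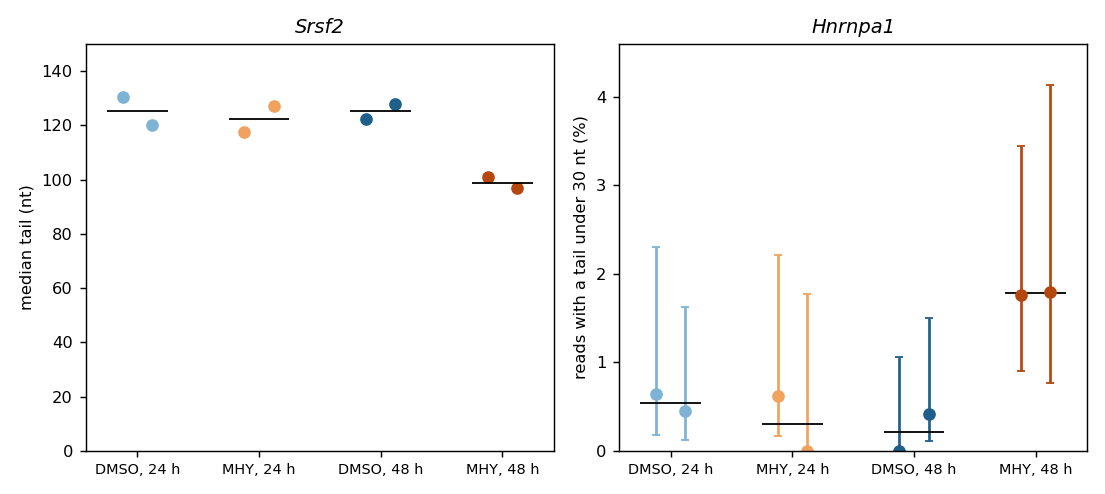
Median poly(A) tail of Srsf2 in nt (left) and share of Hnrnpa1 reads with a tail under 30 nt in percent with 95% Wilson intervals (right), per library, with horizontal lines at the group means. At 48 h the MHY libraries lie lowest for Srsf2, with a mean of 98.8 nt, and highest for Hnrnpa1, with a mean of 1.78%.

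Hnrnpdl had the lowest p in this class for the difference between the effects, without passing the test. Under 30 nt were 1 of 12 and 8 of 48 reads in DMSO and 0 of 25 and 0 of 23 in MHY at 24 h, and 0 of 19 and 0 of 37 in DMSO and 4 of 50 and 0 of 19 in MHY at 48 h. The difference between the effects was 5.24 on the log2 odds scale (SE 1.38, limma, adjusted p = 0.184). At these depths the values of single libraries rest on few reads.

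For tails of 30 to 90 nt 0 of the 25 genes were called in any contrast, against 0% of 1949 genes at 24 h, at 48 h and for the difference and 0.154% for time, with 0, 2, 2 and 2 genes at an unadjusted p under 0.05 (limma). The lowest p at 48 h were those of Srsf10, with a log2 odds change of 1.76 (adjusted p = 0.543), and Srsf2, with 0.83 (adjusted p = 0.569). The share of reads on each isoform was not called for any of 75 splicing factor isoforms in any contrast, against 0% of 1753 isoforms, with 5, 6, 3 and 2 at an unadjusted p under 0.05 for 24 h, 48 h, the difference and time (limma). No change in isoform use was therefore called, and the part of read depth in this was not tested.

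The choice of 3′ end was tested in 13 splicing factor genes, again after the data had been seen. None was called (limma), against 0% of 362 genes at 24 h, 0.276% at 48 h, 0% for the difference and 0% for time, with 0, 2, 1 and 1 at an unadjusted p under 0.05. The lowest p was that of Hnrnpa2b1, whose upstream end, with the longer tails, took 76.8% and 74.4% of reads in DMSO and 70.1% and 66.7% in MHY at 24 h, and 72.1% and 75% in DMSO and 55.3% and 62.9% in MHY at 48 h. Both MHY libraries lay below the DMSO libraries at each time point. The change in log2 odds was −0.997 at 48 h (SE 0.296, limma, adjusted p = 0.150).

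Read counts of splicing factor genes were not called in any contrast. Of 29 genes tested 0 passed (limma, adjusted p under 0.05), against 0.0486% of 4115 genes at 24 h, 1.73% at 48 h, 0.340% for the difference between both effects and 0.875% for time. These shares moved with single libraries, from 71 genes called in all at 48 h to 10 without library 24 and 145 without library 25 of MHY, from 14 to between 0 and 30 for the difference and from 36 to between 10 and 55 for time. The number at an unadjusted p under 0.05 was 3, 4, 1 and 1. At 24 h the fitted values were negative in 25 of the 29 genes, with a median log2 fold change of −0.12, where 47.34% of all genes were positive and their median was −0.02. The number was 22 under scaling by total reads (median −0.09), 18 without library 23 of DMSO (−0.13), 20 without library 23 of MHY (−0.075), 22 without library 21 of DMSO (−0.20) and 25 without library 21 of MHY (−0.20). At 48 h 15 of the 29 were positive and the median was 0.02. Scaling by total reads gave 19 positive (median 0.13), where the median of all genes moved from −0.02 to 0.10, and the median was −0.09 without library 24 of MHY (11 positive), −0.03 without library 24 of DMSO (12 positive) and −0.0032 without library 25 of DMSO (14 positive). These comparisons share no libraries between time points, while genes of a library share its depth and scaling. In bulk samples fewer cells with a transcript and fewer copies per cell cannot be told apart.

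Hnrnpa1 had the lowest p at both time points without passing the test. Its level was 1698 and 1649 RPM in DMSO and 1436 and 1229 in MHY at 24 h, and 1681 and 1561 in DMSO and 1333 and 1260 in MHY at 48 h. Neither MHY library reached the lower DMSO library, at 24 h or at 48 h. The log2 fold change was −0.32 at 24 h (SE 0.138, limma, adjusted p = 0.960) and −0.31 at 48 h (SE 0.131, adjusted p = 0.259).

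Among the largest changes in either direction were genes with few reads. At 24 h the most negative were Hnrnpm, an hnRNP bound to the spliceosome, with a log2 fold change of −0.49 (SE 0.230, limma, adjusted p = 0.960), Hnrnpa3 with −0.37 and Hnrnph1 with −0.37. The most positive were Hnrnph3, with 7 to 20 reads per library, at 0.55 (SE 0.530, adjusted p = 0.987), Hnrnpll, a paralogue of Hnrnpl, at 0.29, and Srsf9 at 0.13. At 48 h the most negative were Srsf4, with 4 to 25 reads per library, at −0.75 (SE 0.400, adjusted p = 0.437), Hnrnph3 at −0.70 and Hnrnph1 at −0.49 (adjusted p = 0.280). The most positive were Srsf6 at 0.36, Srsf3 at 0.27 and Hnrnpr at 0.23. Several of these values moved with single libraries. At 48 h Srsf4 was at −0.031 without library 25 of MHY, which had 4 of its reads, and at −1.91 without library 24, while Hnrnph3 ran from −0.98 to −0.23, Srsf6 from 0.14 to 0.66 and Hnrnpr from 0.065 to 0.35 when a library was left out. At 24 h Hnrnph3 ran from 0.20 to 0.78, Hnrnph1 from −0.59 to −0.20, Hnrnpll from 0.19 to 0.38 and Srsf9 from −0.19 to 0.36. Hnrnph1 also turned sign at 24 h at a mapping quality of at least 10, to 0.29. The value of Hnrnph3 was positive at 24 h and negative at 48 h, and the difference between both effects was not called (adjusted p = 0.785).

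**Figure D5:**
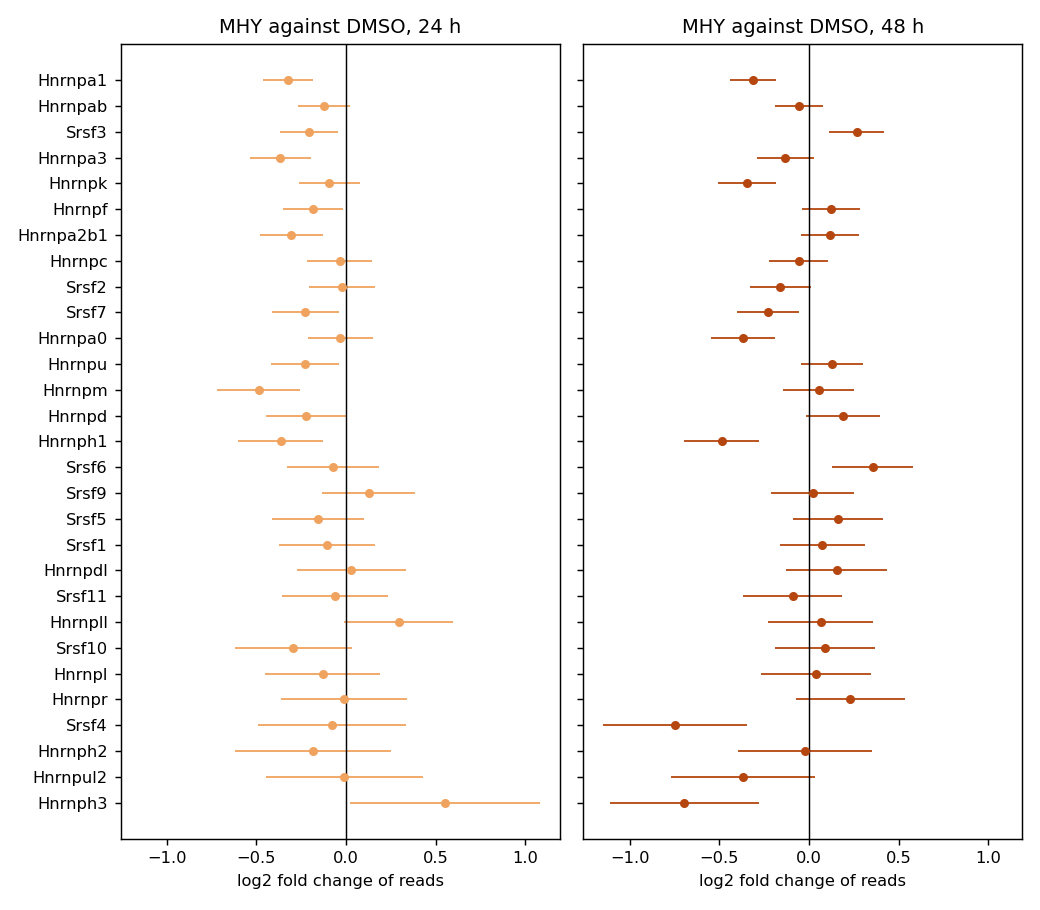
Log2 fold change of reads, MHY against DMSO, with bars of 1 standard error (limma), for the 29 splicing factor genes tested at 24 h (left) and 48 h (right), ordered by number of reads. At 24 h 25 of the 29 points lie left of 0, and the widest bars belong to Srsf4 and Hnrnph3.

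Srsf3 depended on 1 library. Its level at 48 h was 735 and 644 RPM in DMSO and 977 and 671 in MHY. The log2 fold change was 0.27 (SE 0.153, limma, adjusted p = 0.484), 0.51 without library 25 of MHY (adjusted p = 0.0419) and −0.03 without library 24.

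Between 48 h and 24 h no splicing factor gene was called for reads, tails, tail classes, isoform shares or 3′ ends (limma). The lowest p for reads was that of Hnrnpa0, with a log2 fold change of −0.29 (adjusted p = 0.430), and for tails that of Srsf2, with −10.3 nt (adjusted p = 0.429). Over all 1949 genes the median of the fitted tail differences between the time points was −4.57 nt and over the 25 splicing factors −4.98 nt. The second was −2.37 nt without library 24 of MHY at 48 h, −2.67 nt without library 21 of MHY and −2.92 nt without library 23 of DMSO at 24 h, and the first was −2.86 nt without library 24 of MHY.

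Other genes of the splicing machinery were taken from lists chosen by name. Of 21 hnRNP proteins with other symbols 18 were tested for reads and 13 for tails, with 0 called in any contrast (limma). For this and the lists that follow, the share called over all genes was 0.0486% to 1.73% for reads and 0% to 0.103% for tails. An unadjusted p under 0.05 was found for 1 gene in each contrast for reads and for 0 to 2 genes for tails. The most read were Pcbp1 and Pcbp2, KH-domain relatives of Hnrnpk, with 950 and 890 reads and median tails of 107.7 and 114.9 nt. Of 26 SR-related proteins and kinases 21 were tested for reads and 6 for tails, with 0 called and 1 to 2 genes per contrast at an unadjusted p under 0.05 for reads and 0 to 2 for tails (limma), led by Rnps1, a component of the exon junction complex, with 521 reads and 127 nt, and Tra2b, an exonic enhancer-binding protein, with 494 reads and 101.6 nt.

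Of 25 factors that recognise the splice sites 24 were tested for reads and 21 for tails, with 0 called and 0 to 2 genes per contrast at an unadjusted p under 0.05 for reads and 0 to 1 for tails (limma), led by U2af1, which contacts the AG of the 3′ splice site, with 775 reads and 103.5 nt, and Ddx39b, an RNA helicase, with 724 reads and 111 nt. Of 20 other regulators of alternative splicing 6 were tested for reads and 1 for tails. The most read was Rbm3, a cold-inducible RNA-binding protein, with 1167 reads and 97.3 nt. In this list Zranb2, a zinc finger splicing regulator, rose in reads from 24 h to 48 h by 1.07 on the log2 scale (SE 0.278, limma, adjusted p = 0.0203), a comparison in which time and run cannot be told apart. It had 5 and 21 reads in DMSO and 12 and 6 in MHY at 24 h, and 22 and 32 in DMSO and 34 and 25 in MHY at 48 h.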

How the data were processed

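Direct RNA sequencing reads of P19 cells were made on a GridION. Base calling used Guppy, alignment to mouse transcripts (mm10) minimap2 2.20, and tail estimation Nanopolish, all run by the authors according to their methods. The deposited table lists 1 alignment per line, with the tail length by the authors in nt and no normalization. The deposited mapping quality is an alignment score, and the confidence of the barcode call is deposited as a fraction. The table holds no read counts, so counts were made here by counting lines.

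Of 2439710 alignments, 2027638 (83.1%) had the Nanopolish tag PASS. Mitochondrial (66955) and pseudogene alignments were removed, and a read was counted once per transcript, which left 178369 to 316546 reads per library. Mapping quality reached 10 in 57.8% of splicing factor reads and 71.5% of all reads. Biotypes and gene positions come from the deposited table and GENCODE vM21 (GRCm38), in which 97.2% of splicing factor reads could be placed on the genome.

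Groups came from the series labels. All 8 libraries entered 1 fit per measure with limma 3.58.1 in R 4.3.3: voom on counts with median-of-ratios size factors (genes reaching 10 reads in 2 libraries or more), and weighted fits of median tails and of the log2 odds of tail classes (at least 10 reads in each library, 0.5 reads added to each class). p-values were adjusted by Benjamini-Hochberg over all features of a contrast, with a threshold of 0.05. The scripts were tested on simulated data. DESeq2, which the study used on counts, was not run. 3′ ends were windows of 24 nt around a mode with at least 30 reads and 10% of the gene's reads. Alternatives changed mapping quality, barcode confidence, filters, weights (in 1 case with the variance trend dropped as well), class bounds, scaling, the replicate block and the libraries used. The genes and lists were chosen with earlier results of these data known. Genes named are the 10 most read, the 3 with the longest and the 3 with the shortest tails among those with at least 100 reads, every one called, and the 3 largest changes in reads in each direction per treatment contrast; others were named after their values were seen.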

Additional observations from a re-analysis of the deposited data

Results flagged for a closer look

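Srsf6 was singled out because its treated libraries moved opposite ways at the 2 time points. Its median tail was 127 and 144 nt in DMSO and 121 and 112 nt in MHY at 24 h, and 117 and 117 nt in DMSO and 128 and 128 nt in MHY at 48 h, on 21 to 61 reads each. The MHY minus DMSO difference of the means was −19.1 nt at 24 h and 10.71 nt at 48 h. The test of the difference between both effects gave 28.5 nt (SE 15.5, limma, adjusted p = 0.999), so a difference was not shown. With 2 libraries per group no library could be tested for standing apart from its group.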

How the results depend on the processing

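With 2 libraries per group, most calls sat near the threshold. The number of splicing factors called was within 1.5 times the reported number in 345 of 372 alternative fits, most of them at 0, which says little about stability. For tails under 30 nt at 48 h the 1 call (Hnrnpa1) became 0 at a mapping quality of at least 10, at a barcode confidence of at least 0.9, with 30 reads in each library, with weights by absolute reads and no variance trend (a change of 2 choices at once), and with a class bound of 20 nt, and was 0 to 1 when a library was left out. Its log2 odds change was 2.71 to 2.80 in these settings except at the barcode limit (1.55), and 1.90 to 3.81 when a library was left out. For median tails at 48 h the count of 0 genes became 1 (Srsf2) with 30 reads in each library (adjusted p = 0.0396) and with weights by absolute reads and no variance trend (adjusted p = 0.0389), while the 1 isoform called became 0 without any 1 library. For reads at 48 h it was 0 to 1 without a library (Srsf3), and for tails at the 2 ends 3 to 5 of 8. The sign of the log2 change in reads turned for Hnrnph1 at 24 h (0.29 at a mapping quality of at least 10), for Srsf9 at 24 h (−0.19 to 0.36 when a library was left out) and for Srsf3 at 48 h (−0.027 without library 24 and 0.51 without library 25 of MHY). The cause was not tested. No splicing factor had enough reads at a mapping quality of at least 10 to compare non-coding with coding tails. Over all genes, the 71 called for reads at 48 h ranged from 38 to 147 over other settings and from 10 to 145 without a library. Whether the replicate numbers pair the cultures could not be settled. Over 1949 genes, deviations of same-numbered libraries correlated at 0.0192 at 24 h and 0.139 at 48 h in counts. In tails the values were 0.0470 and 0.0454. Counting error also lowers such values, so they do not show that the cultures were unpaired. At 48 h T had 73 and 40 reads in libraries 25 of DMSO and MHY, against 15 and 10 in libraries 24. With the replicate block, 1 splicing factor was called for median tails at 48 h (Srsf2, adjusted p = 0.0128) and 1 for the difference of the effects on tails under 30 nt (Hnrnpa1, 3.56, adjusted p = 0.00613), and over all genes 17 rather than 0 for median tails at 48 h and 85 rather than 2 for time.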
